A study of Mus musculus with 8 samples.

Results

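The C/EBP family (Cebpa, Cebpb, Cebpd, Cebpe and Cebpg) was examined in ATAC-seq peak lists of bone marrow cells. ATAC-seq marks open chromatin by where the Tn5 transposase inserts adapters. The members were every listed peak that overlapped the body of these 5 genes or 50 kb on either side. There were 314 such peaks among 501728, and they fell into 67 merged regions of 123260 in all. The windows of Cebpa and Cebpg lie on the same chromosome and shared 4 of these regions. All samples came from 4.5-month-old female mice of the strain 129Sv4/Jae x B6. WT mice were compared with XistΔ/Δ mice, in which floxed Xist alleles were deleted homozygously by Vav-iCre, a recombinase active in hematopoietic cells. LSK+ cells (Lin-SCA-1+c-Kit+, which hold the hematopoietic stem cells) and LSK- cells (Lin-SCA-1-c-KIT+ myeloid progenitors) were sorted, with about 10000 cells per reaction. Each of the 4 groups had 2 libraries, and the study calls them biological replicates. The labels do not say whether each was a separate mouse, and p-values measure only the spread between these libraries.

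C/EBP proteins are basic leucine zipper factors that bind DNA as dimers. C/EBPα is needed for multipotent cells to become granulocyte-monocyte progenitors, C/EBPβ acts in granulocyte production under stress, and C/EBPε drives the last steps of granulocyte maturation. C/EBPδ is induced in inflammation, and C/EBPγ lacks an activation domain and pairs with other members. Transcription of Cebpa in myeloid progenitors is known to depend on an enhancer downstream of the gene that RUNX1 and other blood factors bind. Cebpe also has a downstream enhancer, which C/EBP proteins themselves bind.

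The sequences at 4 distal regions are shown because the comparisons of cell types turn on them, with the 250 bases before the Cebpa start for contrast. They are 200-base windows centred on the summit, plus strand, mm10 (bases from the RefSeq copy of GRCm38.p6). Capitals mark matches, searched on both strands, to any of 7 short motifs. The C/EBP motif was written as TTGCNNAA, where N stands for any base. For the ETS factor PU.1 the letters searched were GAGGAA, and for the other ETS factors they were CCGGAA. RUNX factors were represented by the letters TGTGGT, and the GATA factors by the letters AGATAA. The MYB motif was searched as CAACTG, and that of the AP-1 dimers was searched as TGANTCA.
Cebpa +37.4 kb, chr7:35156548-35156747: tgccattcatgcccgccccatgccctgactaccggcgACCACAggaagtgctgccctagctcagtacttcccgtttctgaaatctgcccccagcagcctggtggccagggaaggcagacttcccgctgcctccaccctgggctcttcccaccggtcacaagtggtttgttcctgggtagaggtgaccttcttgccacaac
Cebpe +6.2 kb, chr14:54705918-54706117: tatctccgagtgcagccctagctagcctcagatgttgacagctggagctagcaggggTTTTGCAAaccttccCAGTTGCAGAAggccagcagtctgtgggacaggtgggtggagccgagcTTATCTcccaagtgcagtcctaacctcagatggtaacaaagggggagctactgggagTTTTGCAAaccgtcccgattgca
Cebpd +15.0 kb, chr16:15902162-15902361: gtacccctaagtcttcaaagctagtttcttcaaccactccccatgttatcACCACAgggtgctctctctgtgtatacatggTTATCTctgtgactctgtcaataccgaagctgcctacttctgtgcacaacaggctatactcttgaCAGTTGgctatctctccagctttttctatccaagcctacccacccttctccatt
Cebpg +20.8 kb, chr7:35035658-35035857: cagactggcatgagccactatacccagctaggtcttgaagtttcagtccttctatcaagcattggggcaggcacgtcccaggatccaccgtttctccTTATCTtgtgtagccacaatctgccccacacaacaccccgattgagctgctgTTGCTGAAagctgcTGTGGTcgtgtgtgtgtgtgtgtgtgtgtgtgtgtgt
Cebpa promoter, chr7:35119043-35119292: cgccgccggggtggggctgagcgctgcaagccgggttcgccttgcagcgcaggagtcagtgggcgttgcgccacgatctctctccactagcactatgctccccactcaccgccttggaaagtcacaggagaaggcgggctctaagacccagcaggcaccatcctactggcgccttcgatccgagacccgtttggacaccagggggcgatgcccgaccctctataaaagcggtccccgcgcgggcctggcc

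The window at Cebpe +6.2 kb held 3 matches to the C/EBP motif, at positions 58 to 65, 76 to 83 and 178 to 185 from its left end, the second of which overlaps a MYB match. Over all 41799 regions tested, 8.95% of summit windows of this length held a C/EBP match. Among distal ones, over 3 kb from any transcription start, 10.8% did. Of the 31 tested regions of the C/EBP windows, 3 did. The Cebpg +20.8 kb window held 1 C/EBP match, beside a RUNX and a GATA match, and the Cebpd +15.0 kb window held RUNX, GATA and MYB matches. Of the 7 motifs as written, the Cebpa +37.4 kb window held only a RUNX match, a motif found in 24.2% of all windows and 31.1% of distal ones. Variants of these letters, such as other ETS sites, were not searched. GATA matches stood in 13.5% and MYB matches in 11.1% of all windows, and in 18.0% and 13.0% of distal ones. The Cebpa promoter sequence, with a GC content of 66.4%, held none of the 7 motifs. RefSeq promoter entries were matched for 3 of the 5 genes. A match describes these letters and is not a test of binding.

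Library depth differed, and this bears on every comparison. The lists held 29829 to 91590 peaks, and the background fragment pileup (the most common local background solved from fold and p, a measure of depth) ran from 0.482 to 3.87. LSK- libraries had the higher background in each of the 4 pairs with LSK+ libraries of the same genotype and replicate number, and XistΔ/Δ libraries did in each of the 4 pairs with WT. Replicates 1 were sequenced on an MGI instrument and replicates 2 on an Illumina instrument, so the replicate number also marks the instrument. A peak within 3 kb of the Xist transcription start site (TSS) was listed in 4 of 4 WT libraries, at percentiles from 51.2 to 80.6, and in 1 of 4 XistΔ/Δ libraries, at 26.9. Of the markers of the sort, the promoter of Kit had a peak in 8 of 8 libraries, while Ly6a, which encodes SCA-1, had one in only 1 of 4 LSK+ libraries and in 0 of 4 LSK- libraries. Of 8 LSK- marker promoters, 6 had the higher and 2 (Prtn3 and Klf1) the lower mean in LSK-, and 1 was called higher (Epor, the erythropoietin receptor, adjusted p = 0.043, limma), where 3.59% of all regions were. Prtn3 stood at 63.5 in LSK+ and 26.1 in LSK- and was not called. Of 6 LSK+ marker promoters tested, 4 had the higher mean in LSK+ and 0 were called by limma, where 4.37% of all regions were called higher in LSK+. Among promoters of lineage-positive cells, Cd3e, Cd4 and Ly6g had no peak in any library, Ms4a1 had one in 1 library and Itgam in 5, and the mean matched percentile of these promoters in either cell type was at most 22.5. The part of such cells, and of depth, in the results below was not tested. In sorted populations, fewer cells with an open site and less opening per cell cannot be told apart.

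Peak strength is given as the percentile of a peak's -log10 p within its own list, where 100 is the strongest peak and 0 means that no peak was listed. Because lists differed in length, tests used a matched percentile, the rank among the 29829 strongest peaks of each library (the length of the shortest list), with 0 for a region outside them. Regions within the top peaks of at least 2 of 8 libraries were tested, 31 of the 67 C/EBP regions. Of these 31, 6 reached the top peaks in LSK- libraries only and 1 in LSK+ libraries only, so these entered the test through the cell type in which they were high. Likewise 1 reached them in XistΔ/Δ libraries only and 2 in WT libraries only. For such regions the p-values are given as a description and are no evidence of a difference. The 36 regions not tested were weak, with a median of 2 libraries and a mean percentile of at most 30.4.

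The number of peaks around the C/EBP genes depended on the gene and on the flank. A mean of 6.75 ± 1.04 top peaks (SD over 8 libraries) lay around Cebpb and 6.5 ± 1.51 around Cebpa, more than around 86.1% and 84.5% of 21755 protein-coding genes with the same flanks, for which the median was 3.25. Cebpe had 4.25 ± 0.886, Cebpg 3.75 ± 0.463 and Cebpd 2.38 ± 0.916 top peaks. With flanks of 25 kb the means were 3.12 for Cebpa and for Cebpe, 3.0 for Cebpb, 2.5 for Cebpg and 2.12 for Cebpd, so that Cebpa and Cebpb no longer stood above Cebpe. Of the 67 regions, 21 had their summit within 3 kb of a TSS, 10 of them of a C/EBP gene, and 46 were distal. A peak was listed in all 8 libraries at 17 regions and in only 1 library at 12.

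**Figure D1:**
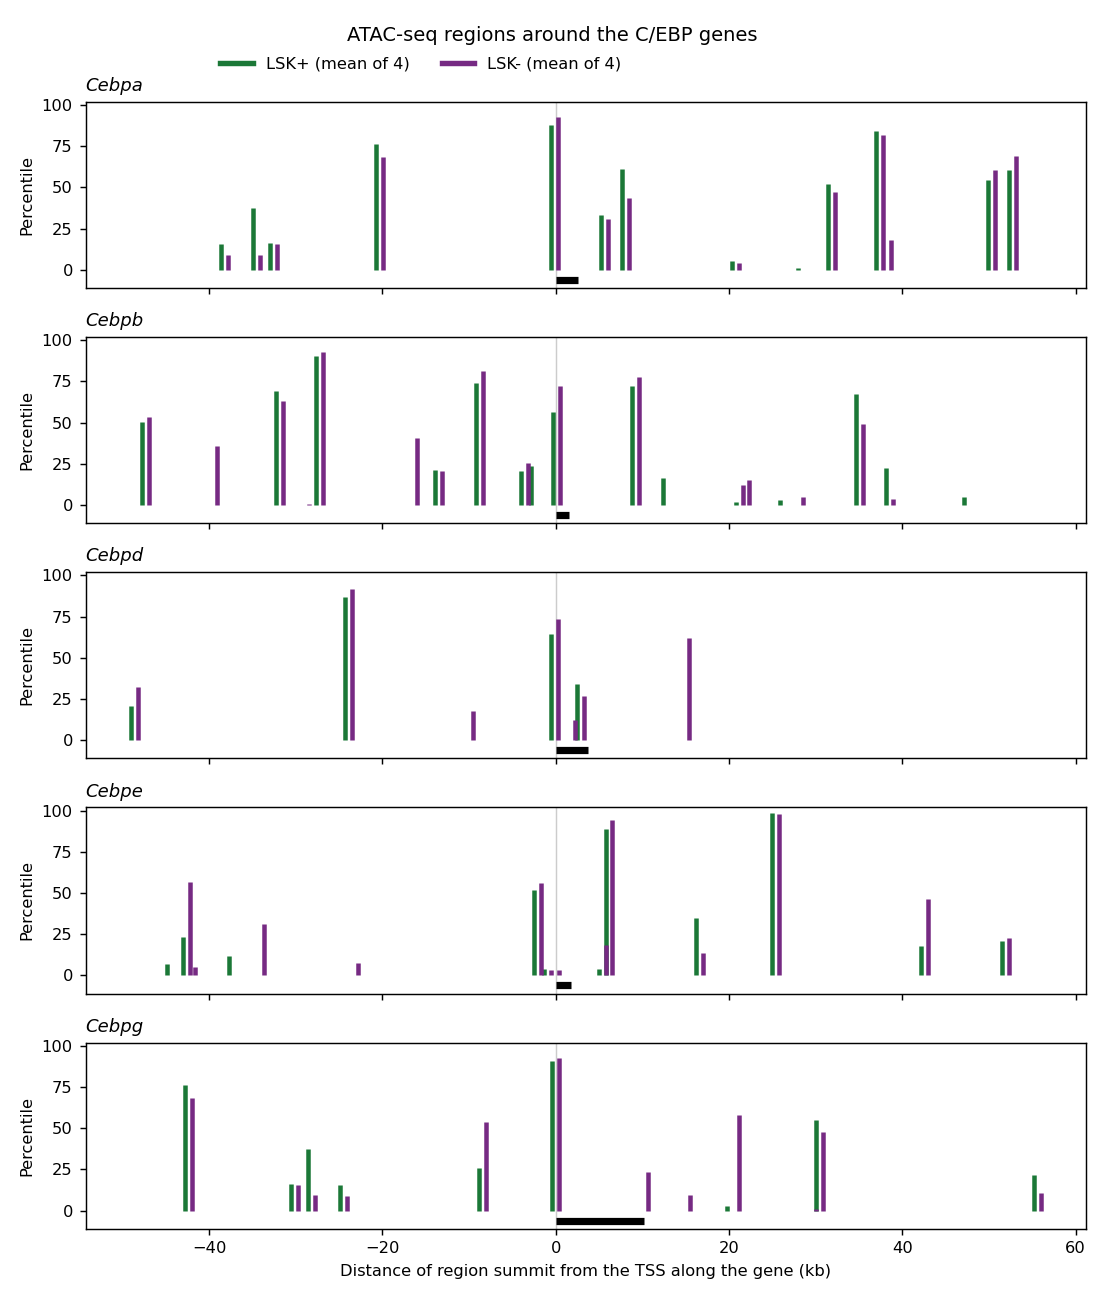
Regions around the 5 C/EBP genes. The x axis gives the distance of each region's summit from the TSS in kb along the direction of the gene, and bar height gives the mean percentile within the peak list over 4 LSK+ (green) or 4 LSK- (purple) libraries, with the 2 bars of a region drawn 0.8 kb apart and the gene body in black. Cebpd +15.0 kb, Cebpg +20.8 kb and the Cebpe promoter carry a purple bar only. The promoters of Cebpa, Cebpb, Cebpd and Cebpg and Cebpa +37.4 kb carry both.

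The promoters were described first. The Cebpa promoter region (chr7:35118107-35119670, over the TSS of ENSMUSG00000034957.10) was among the stronger peaks of every list. Its percentile was 87.1 and 78.4 in LSK+ WT replicates 1 and 2, 90.6 and 94.5 in LSK+ XistΔ/Δ, 87.1 and 95.1 in WT LSK- cells, and 92.8 and 95.4 in those of XistΔ/Δ mice. The cell types overlapped, and so did the genotypes. The matched percentile was 78.3 ± 7.14 in LSK+ and 82.8 ± 11.4 in LSK- (SD, n = 4 each), a difference of 4.42 (SE 5.83, limma adjusted p = 0.651). An exact, two-sided permutation of the cell type labels within genotype returned p = 0.556. With 36 assignments, the smallest p this test can give is 0.0556.

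The Cebpg promoter (chr7:35055936-35057491, ENSMUSG00000056216.9) lay among the stronger peaks of every list too. It stood at 89.9, 91.9, 86.2 and 94.7 in the LSK+ libraries (WT replicates 1 and 2, then XistΔ/Δ 1 and 2) and at 86.1, 93.1, 94.7 and 96.4 in the LSK- libraries in that order. Its matched percentile differed between cell types by 3.37 (SE 7.45, limma adjusted p = 0.8).

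The Cebpb promoter (chr2:167688511-167690145, over the single-exon gene ENSMUSG00000056501.3) was more variable. Its percentile was 40.8, 57.1, 40.7 and 86.7 in the LSK+ libraries and 48.6, 75, 82.2 and 83.4 in the LSK- libraries, in the same order. Groups overlapped, and the difference between cell types in matched percentile was 12.5 (SE 21, limma adjusted p = 0.731). The Cebpd promoter (chr16:15886599-15888358, ENSMUSG00000071637.5) had percentiles of 65, 55.4, 51.6 and 85 in LSK+ and 53.8, 78.6, 75.6 and 85.4 in LSK- libraries. Here the difference in matched percentile was 4.53 (SE 20.6, limma adjusted p = 0.908). At both promoters, replicate 2 stood above replicate 1 in each of the 4 groups on the matched scale. With the replicate number as a block, limma adjusted p-values for cell type were 0.34 (Cebpa), 0.587 (Cebpg), 0.443 (Cebpb) and 0.786 (Cebpd).

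Cebpe was the exception in the family. The region at its TSS (chr14:54712109-54712240, ENSMUSG00000052435.7) was listed in 1 of 8 libraries, LSK- XistΔ/Δ replicate 2, at percentile 13.7 with a summit pileup of 19 fragments. The strongest peak within 3 kb of the Cebpe start lay 2.1 kb upstream, with percentiles of 58.4, 20.4, 68.4 and 60.1 in LSK+ and 73.8, 45.6, 58.1 and 47.4 in LSK- libraries. In order of mean matched percentile over the 8 libraries, the promoters ran Cebpg, Cebpa, Cebpd, Cebpb and Cebpe. Cebpg and Cebpa differed by less than the spread of either over libraries, and so did Cebpd and Cebpb.

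**Figure D2:**
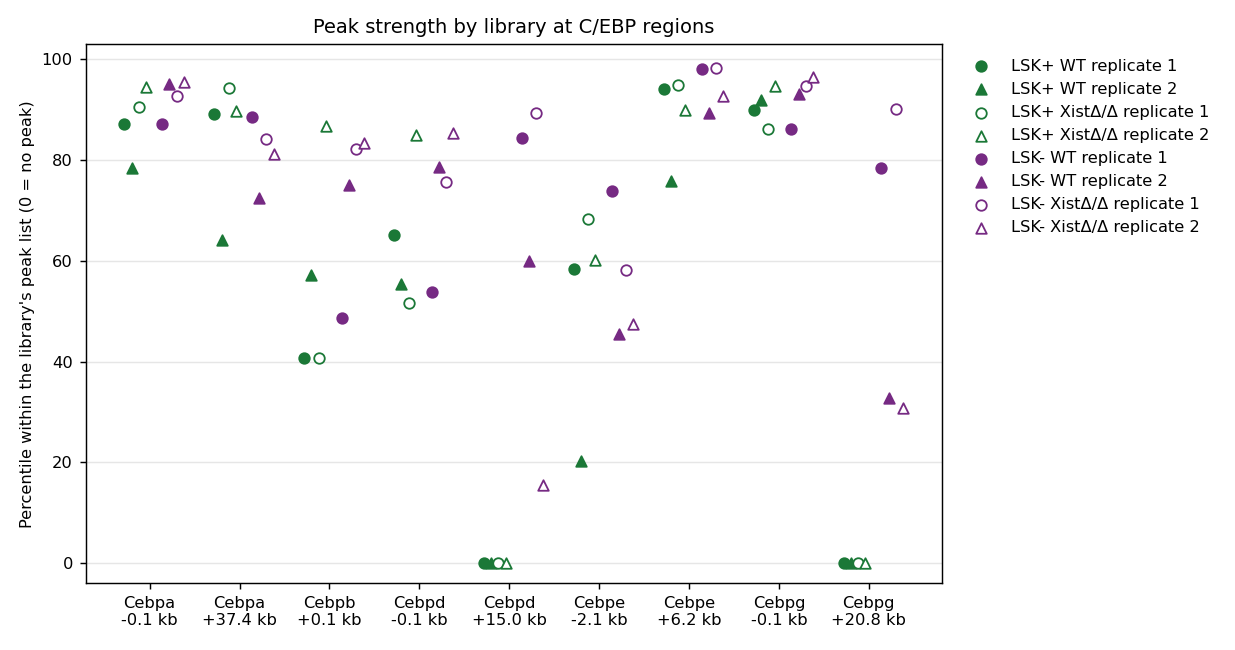
Percentile within the peak list for each of the 8 libraries at 9 C/EBP regions. Green is LSK+ and purple LSK-, filled symbols are WT and open symbols XistΔ/Δ, circles are replicate 1 and triangles replicate 2, and a value of 0 means that no peak was listed. The 4 LSK+ libraries lie at 0 for Cebpd +15.0 kb and Cebpg +20.8 kb, while at Cebpe +6.2 kb all libraries lie between 75.9 and 98.2.

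Distal regions were then examined, beginning with Cebpa. The enhancer region 37.4 kb downstream of the Cebpa TSS (chr7:35156288-35157337, 1050 bp, intergenic) was open in every library. Its percentile was 89.1 and 64.2 in LSK+ WT replicates 1 and 2, 94.3 and 89.7 in LSK+ XistΔ/Δ, 88.6 and 72.4 in WT LSK- cells, and 84.1 and 81.2 in those of XistΔ/Δ mice. The lowest value belonged to LSK+ WT replicate 2, the shallowest library, and the cell types overlapped. On the matched scale that library stood at 64.2, and the lowest was LSK- XistΔ/Δ replicate 1, the deepest library, at 51.1. Matched means were 75.8 ± 8.39 in LSK+ and 62.4 ± 9.06 in LSK- (SD, n = 4 each). The difference, LSK- minus LSK+, was -13.3 (SE 6.73, limma adjusted p = 0.25), with LSK- lower in 3 of 4 pairs. It was -18.5 within replicates 1 and -8.19 within replicates 2, and permuting the labels exactly gave a two-sided p of 0.167.

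The other tested regions of the Cebpa window did not pass the test either. Of 8 tested regions in this window, 6 had a lower and 2 a higher mean matched percentile in LSK-. At -20.4 kb (chr7:35098400-35099289, near the small RNA gene Gm22535, a region shared with the Cebpg window) LSK- was lower in all 4 pairs. Its matched percentile was 63.4 ± 15.3 in LSK+ and 38.9 ± 8.91 in LSK-, a difference of -24.5 (SE 10.7, limma adjusted p = 0.188, or 0.0592 with the replicate block). At +8.0 kb, chosen after its values were seen, the LSK+ libraries stood at 45.2, 39.5, 31 and 6.48 on the matched scale, and the LSK- libraries at 10.8, 9.35, 0 and 0 (adjusted p = 0.118, limma, or 0.065 with the block). At +50.3 and +52.7 kb, the remaining strong regions of the window, the differences were -9.0 (SE 13.2) and 10.7 (SE 13.1).

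To compare the Cebpa enhancer with its promoter free of depth, the ratio of their summit fragment pileups was taken within each library. In LSK+ WT the ratio was 0.939 (77 over 82 fragments, exact 95% interval 0.679 to 1.3) and 0.553 (26 over 47) in replicates 1 and 2. For LSK+ XistΔ/Δ it was 1.13 (153 over 135) and 0.637 (130 over 204). The LSK- WT libraries had ratios of 0.976 (80 over 82) and 0.263 (44 over 167), and the LSK- XistΔ/Δ libraries 0.552 (132 over 239) and 0.360 (73 over 203). The interval lay wholly below 1 in both LSK- XistΔ/Δ libraries and in replicate 2 of the other groups, and it included 1 in replicate 1 of LSK+ WT, LSK+ XistΔ/Δ and LSK- WT. On fold enrichment the log2 ratio was above 0 in LSK+ WT replicate 1 (0.33), both LSK+ XistΔ/Δ libraries (0.31 and 0.09) and LSK- WT replicate 1 (0.22), so which of the regions stood higher depended on the signal used. The mean log2 ratio was -0.35 ± 0.48 in LSK+ and -1.07 ± 0.82 in LSK- (SD, n = 4 each), a difference of -0.72 (exact permutation p = 0.222, two-sided). LSK- was lower in 3 of 4 pairs. The difference was -1.19 without LSK- WT replicate 1 and -0.25 without LSK- WT replicate 2. With fold enrichments it was -0.45, with LSK- lower in 4 of 4 pairs. Between genotypes the log2 ratio differed by 0.03 (exact permutation p = 1). These intervals cover counting error only.

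**Figure D3:**
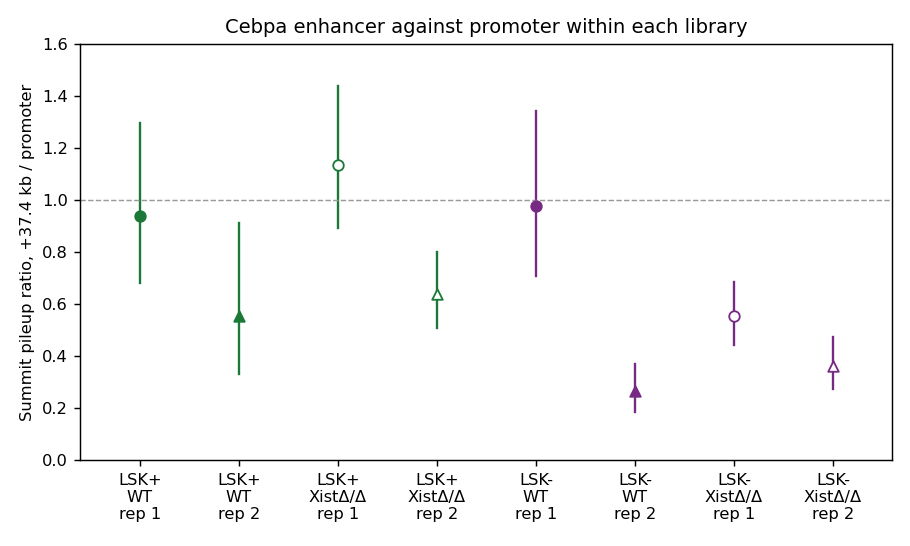
Ratio of the summit fragment pileup at Cebpa +37.4 kb to that at the Cebpa promoter in each library. Points are single libraries (green LSK+, purple LSK-, filled WT, open XistΔ/Δ, circles replicate 1, triangles replicate 2), bars are exact 95% intervals for counting error, and the dashed line marks equal pileups. The ratio was lower in replicate 2 than in replicate 1 in each of the 4 groups.

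Around Cebpe, the region 6.2 kb downstream of the TSS (chr14:54705557-54706555, 999 bp, intergenic) was far stronger than anything at the start site. Its percentile was 94.1 and 75.9 in LSK+ WT replicates 1 and 2, 94.9 and 90 in LSK+ XistΔ/Δ, 98 and 89.4 in WT LSK- cells, and 98.2 and 92.7 in those of XistΔ/Δ mice. LSK- stood higher in 4 of 4 pairs, although the ranges overlapped. The matched percentile was 82 ± 5.64 in LSK+ and 90.2 ± 5.42 in LSK- (SD, n = 4 each). The difference of 8.19 (SE 3.80) gave an adjusted p of 0.212 in limma without the replicate number. With the replicate number as a block the SE was 1.99 and the adjusted p 0.0186. Within replicates 1 the difference was 8.09 and within replicates 2 it was 8.30. Exact permutation returned p = 0.222. The sign turned when peaks had to cover 50% of the region, with a difference of -13.5. Leaving out 1 library gave differences from 5.66 to 10.4. The strongest region of the window was the promoter of Acin1, a gene for a chromatin-condensing and splicing factor, 25.4 kb from the Cebpe start. It lay between percentiles 96 and 99.6 in every library.

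At Cebpd, the region 15.0 kb downstream of the TSS (chr16:15901839-15902528, in an intron of Spidr, a DNA repair gene) was listed in every LSK- library and in no LSK+ library. In LSK- WT replicates 1 and 2 it stood at 84.3 and 59.9, with summit pileups of 58 and 23 fragments. In LSK- XistΔ/Δ it stood at 89.2 and 15.5, with pileups of 150 and 12. In the LSK+ lists the weakest peaks called anywhere had pileups of 5 to 8 fragments, and the 5th percentile of pileups was 7 to 12. LSK- libraries had the higher background in each pair, so pileups are not matched between cell types. The matched percentile was 0 in all LSK+ libraries and 62.6, 49.5, 67 and 0 in LSK-, a difference of 44.8 (SE 14.5, limma adjusted p = 0.091). With the replicate block the SE was 12.5 and the adjusted p 0.0324. The region was tested only because LSK- libraries brought it past the filter, so these p-values do not support a difference. Without LSK- XistΔ/Δ replicate 2 the difference was 60.4 (adjusted p = 0.0256, limma without the block), and without any other single library it was 33.6 to 47 (adjusted p from 0.15 to 0.243). It was 14.8 among the stronger 14914 peaks of each list (adjusted p = 0.35). It was 64.8 within replicates 1 and 24.7 within replicates 2. The promoter of Mzt2, a gene of the microtubule-nucleating complex 23.9 kb upstream of Cebpd, was higher in LSK- in 4 of 4 pairs by a mean of 6.87 (SE 4.78, adjusted p = 0.373).

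At Cebpg, the region 20.8 kb downstream of the TSS (chr7:35035383-35036215, in an intron of Pepd, which encodes a peptidase that cleaves proline dipeptides) showed the same presence pattern. Replicates 1 and 2 of LSK- WT stood at 78.4 and 32.7 and those of LSK- XistΔ/Δ at 90.1 and 30.8, with pileups of 47, 16, 168 and 19 fragments, and was listed in no LSK+ library. The matched percentile differed by 33.4 (SE 14.3, limma adjusted p = 0.18, or 0.0669 with the replicate block). This region too was tested only because LSK- libraries brought it past the filter, so these p-values do not support a difference. Its matched percentile differed by 59.1 within replicates 1 but by 7.6 within replicates 2. A neighbouring region of Pepd at +30.5 kb went the other way, lower in LSK- in all 4 pairs, with a mean difference of -15.5 (limma adjusted p = 0.293).

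Counted over the family, 4 of the 67 regions had a peak in all 4 LSK- lists and in no LSK+ list, and 0 had the reverse. The other members of this set were Cebpb -39.5 kb and Cebpb -16.4 kb, in introns of Gm20431 and Tmem189, with percentiles from 18.5 to 72.4 in LSK-, both named after their values were seen. Over all 123260 regions, 2.12% had a peak in all LSK- and no LSK+ lists and 0.586% the reverse. LSK- lists were longer in 3 of 4 pairs and had the higher background in 4 of 4, and the part of depth in these shares was not tested. Among the top peaks of equal number, 0 of the 67 regions had either pattern. The share of all regions with it was not counted there, so no comparison can be drawn from that 0.

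By limma on the matched percentile, 0 of the 31 tested C/EBP regions were called higher in LSK- and 0 in LSK+, while 5 had an unadjusted p under 0.05, as did 10552 of all 41799 regions tested. Of all regions, 3.59% were called higher in LSK- and 4.37% in LSK+. With the replicate number as a block, 2 of the 31 were called higher in LSK- (Cebpe +6.2 kb and Cebpd +15.0 kb, the latter tested only through LSK-) and 0 in LSK+, against 7.44% and 9.06% of all regions. In 0 of the 31 did all 4 LSK- libraries stand above all 4 LSK+ libraries or the reverse, against 7.71% and 9.24% of all regions. The median difference over the 31 regions was 3.68, and over all tested regions it was 0.12.

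Around Cebpb, no distal region passed the test, in either direction. The region at -8.8 kb (chr2:167679846-167681081, in an intron of Tmem189) stood at 69.2, 66.7, 78 and 81.5 in LSK+ and at 80.6, 74.6, 82.7 and 87.3 in LSK- libraries. On the matched scale it was higher in LSK- in 4 of 4 pairs, by a mean of 10.2 (SE 10.7, limma adjusted p = 0.563). At +9.2 kb (chr2:167697859-167698487, in an intron of the noncoding gene A530013C23Rik) the matched difference was 5.74 (SE 9.21). The Tmem189 promoter at -27.2 kb lay between 84.7 and 96.8 in every library. The regions at -31.8 and +35.0 kb, named after their values were seen, were lower in LSK- in all 4 pairs. At -31.8 kb the matched percentile was 48.8 ± 4.93 in LSK+ and 26.8 ± 15.6 in LSK- (SD, n = 4 each, limma adjusted p = 0.272). The region at +35.0 kb was lower in LSK- in all 4 pairs, with a mean difference of -33.2 (SE 12.7, limma adjusted p = 0.138, or 0.057 with the block).

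Genotypes were compared next, to ask whether loss of Xist altered accessibility of these autosomal genes. In limma, 0 of 31 regions were called (1 at an unadjusted p under 0.05), as were 0 of all 41799 (0%, with 550 at an unadjusted p under 0.05). The differences, XistΔ/Δ minus WT, ran from -18.2 to 17.6 over the 31 regions, with a median of 0.15. At the Cebpa promoter the difference was 4.10 (SE 5.83), at Cebpb 14.2 (SE 21), at Cebpd 2.12 (SE 20.6) and at Cebpg -0.41 (SE 7.45). The Cebpa +37.4 kb region differed by -1.26 (SE 6.73, exact permutation p = 0.833) and Cebpe +6.2 kb by -0.35 (SE 3.80, exact permutation p = 0.889).

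A pair of neighbouring Cebpa regions was described by genotype after their values were seen, and neither passed the test. The region at +5.7 kb had no listed peak in 3 of the WT libraries and stood at 9.92 in LSK- WT replicate 1. In XistΔ/Δ it stood at 70.6 and 61.8 in LSK+ and at 54.5 and 58.1 in LSK- replicates 1 and 2, so all XistΔ/Δ libraries lay above all WT libraries. On the matched scale it was 0 in all WT libraries and differed by 12.4 (SE 5.25, limma adjusted p = 1), and it was tested only through XistΔ/Δ libraries. The region at +8.0 kb was lower in XistΔ/Δ in 4 of 4 pairs on that scale, with a mean difference of -16.8 and exact permutation p = 0.0556, the smallest possible here. Within the whole lists its mean percentile was 51.1 in WT and 53.9 in XistΔ/Δ, higher in both LSK+ pairs and lower in both LSK- pairs. XistΔ/Δ lists were longer in every pair, so whole-list percentiles are not matched between genotypes. At 4 of the 31 regions the genotype difference had opposite signs in LSK+ and LSK-, in both replicate pairs of each, as at 6.5% of all tested regions. Of the 67 regions, 2 (Cebpa +5.7 kb and Cebpb +35.0 kb) had all XistΔ/Δ above all WT percentiles, and 0 the reverse. Over all regions the shares were 3.23% and 0.00243%, and XistΔ/Δ libraries were the deeper in every pair.

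By size, the differences between replicate numbers at the C/EBP promoters exceeded those between cell types. On the matched scale, replicates 2 stood above replicates 1 in 4 of 4 groups at the Cebpa, Cebpb, Cebpd and Cebpg promoters. The means over replicates 1 and 2 were 73.4 and 87.7 for Cebpa, 11.3 and 65.7 for Cebpb, 12.7 and 66.5 for Cebpd, and 72.8 and 91.1 for Cebpg. These promoters had a GC content of 65.3% to 76% in the 300 bases at the summit. Distal regions went the other way in several cases. At Cebpe +6.2 kb (GC 56.7%) and Cebpa -20.4 kb (48%), replicates 2 were above replicates 1 in 0 of 4 groups. At Cebpg +20.8 kb (52%), where both LSK+ groups were at 0, they were below in both LSK- groups. In the whole set of tested regions, replicates 2 stood higher at 98% of 3095 regions with a GC content of 70% or more and at 15.4% of 1305 regions under 40%. The part of GC content in the cell type and genotype differences was not tested. Each replicate number held all 4 groups. Limma without the block and the exact tests took no account of the replicate number.

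**Figure D4:**
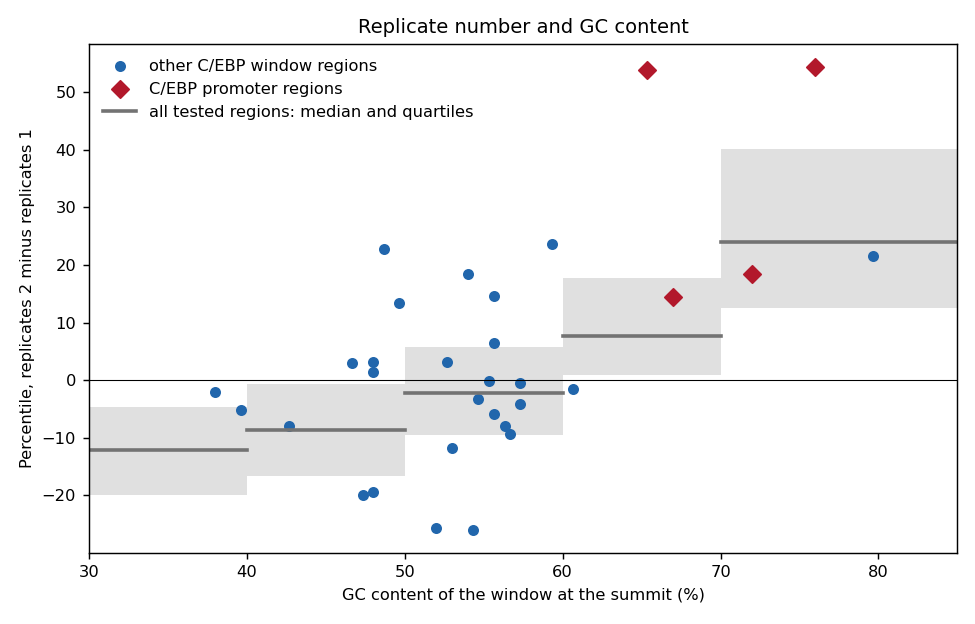
Difference in mean matched percentile between replicates 2 and replicates 1 (y axis) against the GC content of the 300 bases at the summit (x axis, %). Red diamonds are the promoters of Cebpa, Cebpb, Cebpd and Cebpg, blue points the other 27 tested C/EBP regions, and grey lines and bands the median and quartiles of all tested regions by GC class. All 4 promoters lie above 0.

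Genes that act with the family were counted at their promoters. Of 16 partners and regulators (among them Runx1, Spi1, Gata2, Myb and Trib1), all 16 were tested. By limma 0 were called in either direction, where 3.59% of all regions were called higher in LSK- and 4.37% in LSK+. The median difference between cell types was -0.35. With the replicate block, 3 were called higher in LSK- (Myb, adjusted p = 0.018, Ddit3 and Trib2) and 1 lower (Meis1), all named after their values were seen, where 7.44% and 9.06% of all regions were called. Trib2 encodes a pseudokinase that leads C/EBPα to degradation, and its mean matched percentile was 70.3 in LSK+ and 86 in LSK-. Ddit3 encodes CHOP, a C/EBP-related dimer partner. Of 16 granulocyte target genes of the C/EBP factors, 15 had a promoter region and 11 were tested. Without the block 0 of them were called, against 3.59% and 4.37% of all regions. Their median difference was 0.787. With the block, 1 (Ltf, lactoferrin) was called lower in LSK-, where 9.06% of all regions were. Ltf stood at 24.7 in LSK+ and 0 in LSK-, and it was tested only through LSK+ libraries. Of the 11 tested, 6 had the higher and 5 the lower mean in LSK-. The widest differences were at Prtn3 (above), Il6ra, with 61.8 in LSK+ and 36.1 in LSK-, and Ltf, all lower in LSK-. The next widest were higher in LSK-, namely Ctsg with 9.03 in LSK+ and 31.7 in LSK-, and Camp with 0 and 22.2. In LSK-, both were at 0 in replicates 1. In replicates 2 (WT, then XistΔ/Δ), Ctsg stood at 63.7 and 63.3 and Camp at 33.2 and 55.6. Il6ra stood at 0 and 19.6 in LSK- replicates 1 and at 58.8 and 66.2 in LSK- replicates 2. Its LSK+ values were 62.8 and 44.9 in replicates 1, and 70.1 and 69.4 in replicates 2. Camp was tested only through LSK- libraries.

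The promoters whose 8 matched percentiles were most like those of Cebpa +37.4 kb were Adamts14, Haao and H2-M3, among 16724 TSS-proximal regions. Their mean absolute differences over the 8 libraries were 3.80, 4.19 and 4.22 percentile points.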

How the data were processed

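ATAC-seq peak lists of 8 libraries were analysed. Per the study's methods, the authors trimmed reads with Trim Galore, aligned them to mm10 with Bowtie2 (2.3.5.1), used SAMtools (1.10) to drop mitochondrial alignments and those below a mapping quality of 30, and called peaks in each library with MACS2 (2.2.7.1, q of 0.01, paired-end fragments). A control, duplicate removal and a Tn5 shift are not given in the sources used here, and summits may be off by a few bases. The deposited columns read were the fold enrichment over local background (a ratio), the -log10 p and q values, and the summit offset. No read counts per region were analysed here, so rank within a list takes their place. Pileup and background were solved from fold and p, and this step was tested on simulated data, as was the fit.

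Peaks on chromosomes 1 to 19 and X sharing at least 1 bp were merged. Matched percentiles were fitted with limma (3.58.1, R 4.3.3) on cell type and genotype with a mean trend, and p-values were adjusted by Benjamini-Hochberg over all 41799 tested regions. Same-numbered libraries shared an instrument per the study's supplement, and their deviations from group means correlated at 0.164 to 0.521 between groups, so the replicate number was also fitted as a block. Annotation was GENCODE M21. Named regions were each gene's promoter, Cebpa +37 kb, the 3 strongest others per window and any called. The members, lists and tests were chosen with earlier results of these data known. Printed sequences were read from the reference. Alternatives were ranking by fold, other list lengths, overlaps and flanks, and leaving out each library. One marker of another cell type is not reported here.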

Additional observations from a re-analysis of the deposited data

Results flagged for a closer look

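At 4 of the 19 named regions tested (4 of all 31), XistΔ/Δ stood above WT in both replicate pairs of 1 cell type and below it in both pairs of the other on the matched percentile scale, a pattern shown by 6.5% of all tested regions. Cebpa +37.4 kb was higher in LSK+ XistΔ/Δ by 7.38 and 13.9 and lower in LSK- XistΔ/Δ, with differences of -21.7 and -4.69. Its interaction term was -23.8 (SE 11.5, unadjusted p = 0.0729, limma adjusted p = 1, with 0.0394 unadjusted and 0.9998 adjusted with the replicate block). For the Cebpg promoter at -0.1 kb the term was 18.8 (limma adjusted p = 1, with 0.0246 unadjusted and 0.9998 adjusted with the block), for Cebpa -20.4 kb it was -9.95 (adjusted p = 1) and for Cebpa +52.7 kb it was 26.9 (adjusted p = 1). In limma, 0 of all tested regions had an adjusted interaction p under 0.05, and 834 had an unadjusted p under 0.05 (1422 with the block, 0 adjusted).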

How the results depend on the processing

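The number of regions called between cell types depended strongly on the setting, from 3326 as reported to 6898 with the replicate block, 500 with whole deposited lists, and 0 with ranking by fold, with the stronger 14914 peaks of each list, or with peaks covering 50% of a region. Leaving out 1 library gave 0 to 3152 calls, with 0 without LSK+ WT replicate 1, LSK+ XistΔ/Δ replicate 1 or LSK- XistΔ/Δ replicate 1. C/EBP regions called numbered 2 with the block and 0 to 1 without a library, where the 1 was Cebpd +15.0 kb. The difference between cell types in the Cebpa pileup ratio ran from -1.19 to -0.25 without a library. Genotype and interaction calls stayed at 0 in 15 of 15 alternatives. The 4 C/EBP regions listed in all LSK- and no LSK+ libraries became 0 among top peaks, where no share over all regions was counted. Without a library they numbered 4 to 5. The reverse count was 0 to 1, where the 1 came without LSK+ WT replicate 2. The genotype difference in the Cebpa pileup ratio was -0.00855 with fold enrichments and ran from -0.45 to 0.50 without a library.

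Differences between cell types changed sign with peaks covering 50% of a region at Cebpb -8.8 kb (-6.72), Cebpb +0.1 kb (-1.65), Cebpg -0.1 kb (-19.5), Cebpe +6.2 kb (-13.5) and Cebpd -23.9 kb (-12.8), as did the interaction at Cebpa +37.4 kb (8.81), and with whole lists at Cebpa +50.3 kb (6.10). Leaving out each library in turn, they ranged across 0 from -4.98 to 11.3 at Cebpb -27.2 kb, -3.20 to 27.6 at Cebpb +0.1 kb, -0.018 to 9.80 at Cebpb +9.2 kb, -3.90 to 10.1 at Cebpg -0.1 kb, -0.81 to 9.03 at Cebpa -0.1 kb, -0.46 to 16.4 at Cebpa +52.7 kb, -1.0 to 0.77 at Cebpe +25.4 kb, -2.78 to 6.07 at Cebpe -2.1 kb and -10.8 to 20.9 at Cebpd -0.1 kb. The cause was not tested. The planned rule of 50% overlap with either feature changes nothing here, since each peak lies inside its merged region. The 50%-of-region rule, merging of top peaks only, no mean trend, and the alternatives for list presence were chosen after seeing the data. With 2 libraries per group, the exact tests could not reach 0.05.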
